A study of Mus musculus with 7 samples.

Results

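The genes examined here are 9 that are widely used to mark mononuclear phagocytes, read in the ventricles of 4 control mice and 3 mice with a model of immune checkpoint inhibitor (ICI) myocarditis. They were chosen by name, with earlier results of these data known. They include Csf1 and its receptor gene Csf1r, the transcription factor gene Spi1, and the macrophage genes Emr1, Cd68 and Lyz2. Itgam, Cd14 and Ly6c2 complete the 9 and mark monocytes and other myeloid cells. Of the 23420 gene rows of the table, 8 carry one of these names exactly. The row for Spi1 is listed under the older symbol Sfpi1, which RefSeq gives as a synonym of Spi1, so all 9 genes were found. All 9 had enough reads to be tested.

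The control mice were Ctla4+/+ and the ICI-myocarditis mice Ctla4+/-, and both groups were also Pdcd1-/-. All were untreated and between 3 and 6 weeks old. CTLA-4 and PD-1 are the T cell receptors that the inhibitors block, and because the alleles are inherited, every cell of an animal carries them. The controls therefore lack PD-1 too, and the comparison is that of losing 1 copy of Ctla4 in animals without Pdcd1. The protocol names flash-frozen cardiac ventricle, while the tissue label says whole heart. Atrial genes were scarce, with Sln between 0 and 3.7 and Myl7 between 2.47 and 48 normalized counts, beside between 402804 and 1196025 for the cardiac myosin gene Myh6.

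Macrophages and monocytes are phagocytes of the innate immune system. Signalling through the receptor CSF1R, which binds CSF1 and interleukin-34, keeps most tissue macrophages alive, and the transcription factor PU.1, encoded by Spi1, switches on many of their genes. A healthy heart holds resident macrophages, and an inflamed heart also takes in monocytes from the blood, which in mice are told apart by surface Ly6C.

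Sequencing depth lay between 20931730 and 39037176 recovered reads per library. Values are normalized counts, which are gene reads divided by the authors' size factor for the library. Reads of Pdcd1 were present in every library whatever the genotype label, at 2.5 to 244 normalized counts in controls and 1096 to 1481 in ICI-myocarditis, and Ctla4 had 29.2 to 113 and 251 to 373. A count over a whole gene cannot tell a deleted exon from an intact one, so these genes do not check the labels. Control 2 stood apart from the other controls in immune genes: the summed level of 8 T cell genes was 1610 there, against 170 to 265 in controls 1, 3 and 4 and 6780 to 10200 in ICI-myocarditis. Results are therefore also given without control 2 where that matters.

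The upstream sequences of 4 members are shown because PU.1 binds DNA around the core GAGGAA and its own gene, Sfpi1, was among the members that rose. RefSeq promoter sequences (GRCm38.p6) matched 5 of the 9 members by symbol, namely Cd68, Csf1, Itgam, Ly6c2 and Lyz2. The 250 bases before the start were searched on both strands for GAGGAA and for TTGCNNAA, a form of the motif that C/EBP factors bind. Capitals mark the matches, with a match on the other strand read as TTCCTC, and N stands for any base.
Itgam, chr7:128062390-128062639, plus strand: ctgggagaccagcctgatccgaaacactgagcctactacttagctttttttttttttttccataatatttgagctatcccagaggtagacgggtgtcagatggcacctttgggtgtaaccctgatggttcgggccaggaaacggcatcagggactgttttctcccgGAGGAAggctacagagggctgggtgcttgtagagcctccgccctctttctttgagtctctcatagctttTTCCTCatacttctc
Cd68, chr11:69666171-69666420, minus strand: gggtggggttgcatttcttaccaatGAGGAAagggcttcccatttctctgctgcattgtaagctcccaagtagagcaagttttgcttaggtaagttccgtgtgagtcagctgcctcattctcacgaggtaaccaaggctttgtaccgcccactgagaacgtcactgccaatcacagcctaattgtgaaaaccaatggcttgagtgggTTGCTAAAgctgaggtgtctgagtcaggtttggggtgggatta
Ly6c2, chr15:75111972-75112221, minus strand: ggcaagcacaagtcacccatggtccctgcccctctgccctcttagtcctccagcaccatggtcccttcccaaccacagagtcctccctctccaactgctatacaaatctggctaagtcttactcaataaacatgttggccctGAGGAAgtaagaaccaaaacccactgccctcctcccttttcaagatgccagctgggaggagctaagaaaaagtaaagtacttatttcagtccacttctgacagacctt
Csf1, chr3:107760470-107760719, minus strand: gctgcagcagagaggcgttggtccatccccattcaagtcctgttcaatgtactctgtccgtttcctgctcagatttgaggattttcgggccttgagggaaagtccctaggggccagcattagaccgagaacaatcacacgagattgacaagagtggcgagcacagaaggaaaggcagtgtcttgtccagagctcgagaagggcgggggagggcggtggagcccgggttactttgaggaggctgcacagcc

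The core GAGGAA was in the window of 3 of the 5 members. Itgam held 2 matches, 84 to 79 and 15 to 10 bases before the start, the latter on the other strand. Cd68 held 1 match 225 to 220 bases before its start and Ly6c2 held 1 at 108 to 103 bases before the start shown. RefSeq gives Ly6c2 a second start 34 bases further on, whose window shares that match and holds another 8 to 3 bases before it. The windows of Csf1 and Lyz2 held none. Of all 32851 promoter windows of this length, 23.3% held GAGGAA, a share counted per window and not per gene. TTGCNNAA was in the Cd68 window alone among these 5, 43 to 36 bases before the start, and in 9.56% of all windows. A match is a run of letters, and binding was not measured.

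Of the 9 genes, 8 were higher in ICI-myocarditis with a limma adjusted p under 0.05, none was lower, and Cd14 did not pass. Of all 15236 genes tested, 15.7% passed in either direction and 11.7% passed as higher. The same 8 genes had all 3 ICI-myocarditis libraries above all 4 controls, as did 17.3% of tested genes, and 28.6% had the groups apart in either direction. The median log2 fold change was 2.28 over the 9 genes and -0.02 over all tested genes. In bulk tissue, more cells of a type and more RNA per cell cannot be told apart.

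**Figure D1:**
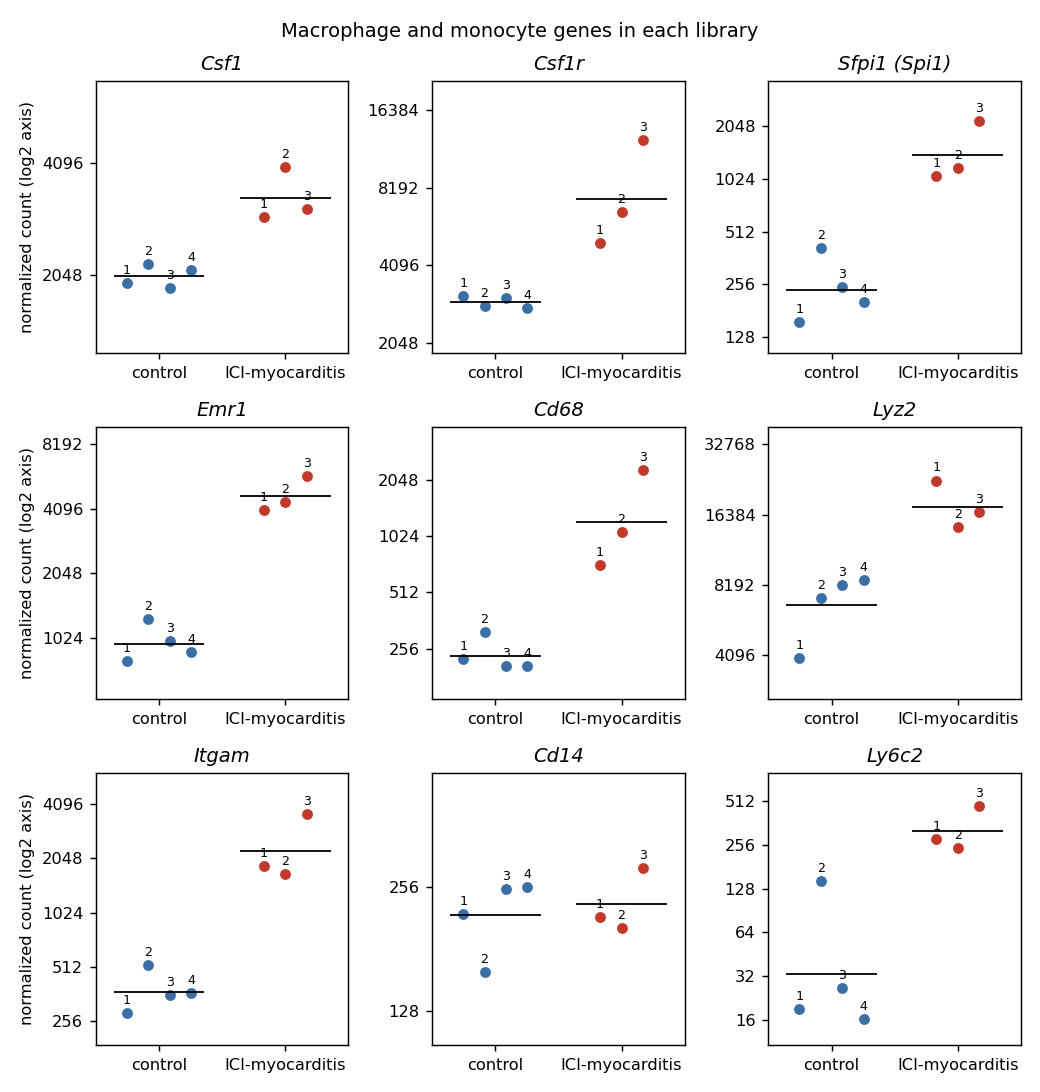
Normalized counts (vertical, log2 axis, its range set for each panel) of the 9 genes in 4 control libraries (blue) and 3 ICI-myocarditis libraries (red), numbered by replicate, with the geometric mean as a line. The groups do not overlap except for Cd14, and ICI-myocarditis 3 is the highest ICI-myocarditis library for 7 genes.

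The ligand and receptor were considered first. Csf1, the growth factor, is made by stromal and other cells and lies at 107741048 to 107760469 on chromosome 3 (GRCm38, minus strand). Csf1 had 1946, 2188, 1888 and 2109 normalized counts in controls 1 to 4 and 2923, 4004 and 3072 in ICI-myocarditis 1 to 3. All 3 ICI-myocarditis hearts lay above every control, and the controls were close to one another (coefficient of variation 6.87%). Csf1 rose by 0.70 in log2 units, with an SE of 0.187 and a limma adjusted p of 0.0337, the smallest rise among the 8. Csf1 passed in 11 of 18 alternatives, failing whenever any library other than control 2 was left out (adjusted p from 0.0517 to 0.151).

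Csf1r, the receptor tyrosine kinase of the mononuclear phagocyte lineage, lies at 61100598 to 61132149 on chromosome 18 (plus strand). Csf1r stood at 3109, 2859, 3057 and 2798 normalized counts in controls 1 to 4 and at 4991, 6590 and 12519 in ICI-myocarditis 1 to 3. The controls varied by only 5.10% (coefficient of variation), while ICI-myocarditis 3 was far above the other 2 ICI-myocarditis hearts. The log2 fold change of Csf1r was 1.33 (SE 0.300, limma adjusted p = 0.0178). It was 0.96 without ICI-myocarditis 3 (adjusted p = 0.0435) and missed the threshold without control 3 (1.35, adjusted p = 0.0546). Exons of Csf1r share 873 bases with Hmgxb3 on the opposite strand, and the use of strand in counting is not given in the sources used here, so part of the reads could belong to either gene.

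The log2 ratio of Csf1 to Csf1r was -0.54 ± 0.17 in controls and -1.17 ± 0.74 in ICI-myocarditis (SD, n = 4 and 3). The difference of -0.63 reached the smallest p the design allows (exact two-sided permutation p = 0.0286 over 35 splits) but not after adjustment over the 17 ratios computed (0.162). ICI-myocarditis 1 and 2, at -0.77 and -0.72, lay just below the lowest control at -0.69, and ICI-myocarditis 3 lay at -2.03. Without ICI-myocarditis 3 the difference was -0.20. Il34, the other CSF1R ligand, had 100 to 224 normalized counts in controls and 218 to 265 in ICI-myocarditis, a log2 difference of 0.52 (limma adjusted p = 0.306).

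The remaining genes of the colony-stimulating factor axis were read from a list of 16 receptors, ligands and signalling partners. Of 14 tested, 11 were higher, 0 lower and 3 did not pass, with a median log2 fold change of 2.30. Csf2rb, the shared beta chain of the GM-CSF receptor, rose by 3.18 (limma adjusted p = 0.00394), and Tyrobp, the adaptor DAP12, rose by 2.60 (0.00251). The cytokine genes Csf2 and Csf3 never exceeded 4.93 normalized counts and were not tested. Without ICI-myocarditis 3, 6 of the list passed.

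Sfpi1, the row for Spi1, encodes PU.1, on which myeloid cells and B cells depend. The gene lies at 91082390 to 91115756 on chromosome 2 (plus strand). Sfpi1 had 155, 414, 248 and 203 normalized counts in controls 1 to 4 and 1069, 1180 and 2184 in ICI-myocarditis 1 to 3. Control 2 was the highest control, yet under the lowest ICI-myocarditis heart. Sfpi1 rose by 2.55 (SE 0.365, limma adjusted p = 0.00396), and by 2.82 without control 2. Of 6 tested B cell genes 1 was higher (Cd79b, 1.56, limma adjusted p = 0.0311, lost without control 1 or any 1 ICI-myocarditis library), and the summed level of that list was 210 to 607 in controls and 356 to 552 in ICI-myocarditis.

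Other transcription factors of the myeloid lineage moved unevenly. Of 18 tested, 7 were higher, 0 lower and 11 did not pass, with a median of 0.81. Irf8, needed for monocytes and dendritic cells, rose by 3.04 (limma adjusted p = 0.00506), and Cebpa, which acts with PU.1 early in the lineage, rose by 2.07 (0.00251). Cebpb, active in differentiating monocytes, had 822 to 3608 normalized counts in controls and 2259 to 3118 in ICI-myocarditis (adjusted p = 0.404), and Klf4 had 1324 to 4606 and 1155 to 1625 (0.400). The control ranges of both were wider than the ICI-myocarditis ranges and contained them in whole or in part.

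**Figure D2:**
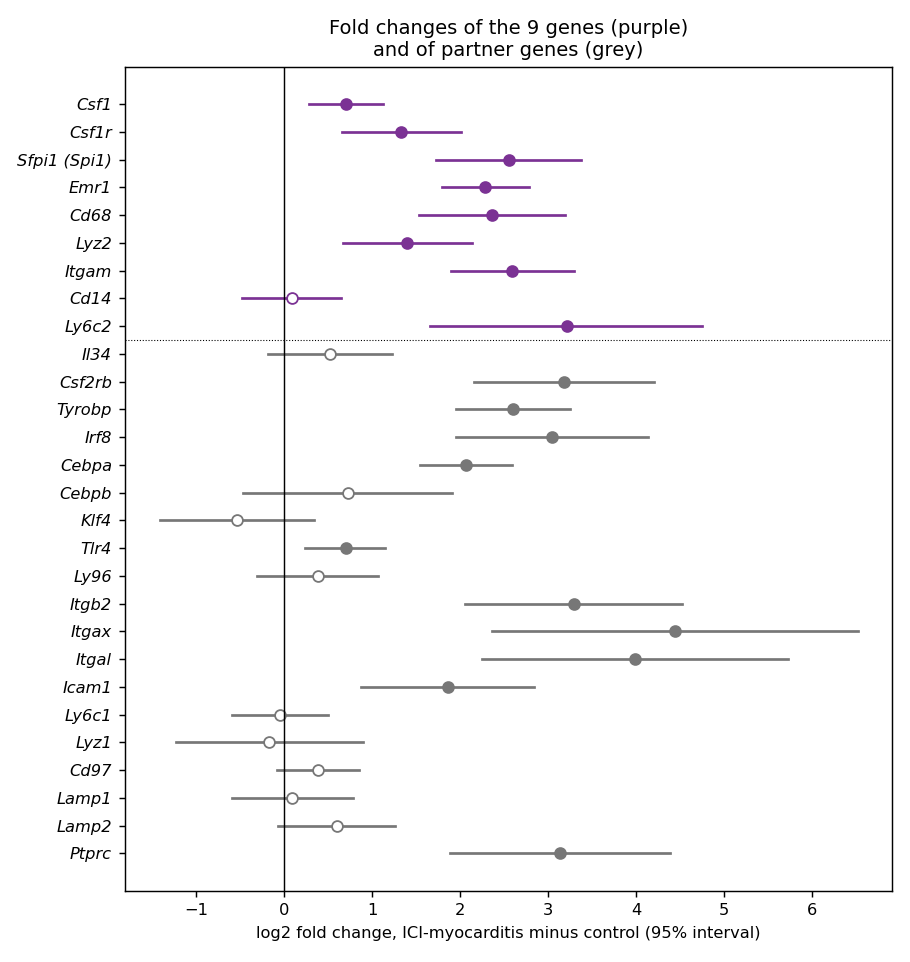
Log2 fold change of ICI-myocarditis over control (points) with 95% intervals from limma (lines) for the 9 genes (purple) and 19 partner genes (grey); filled points passed an adjusted p of 0.05. Cd14, at 0.09, is the open purple point, and Il34, Cebpb, Klf4, Ly96, Ly6c1, Lyz1, Cd97, Lamp1 and Lamp2 are open grey points.

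Emr1, now called Adgre1, encodes F4/80, an adhesion receptor used to stain mouse macrophages. It lies at 57358691 to 57483527 on chromosome 17 (plus strand). Emr1 had 792, 1247, 985 and 873 normalized counts in controls 1 to 4 and 4035, 4375 and 5801 in ICI-myocarditis 1 to 3. The ICI-myocarditis hearts lay close together and the lowest was far above control 2, the highest control. Emr1 rose by 2.28 (SE 0.220, limma adjusted p = 0.00251), a 4.87-fold change, and passed in all 18 alternatives, with values from 2.13 to 2.44. F4/80 is also found on eosinophils, whose listed genes summed to 2.02 to 11.2 normalized counts in controls and 26 to 28.3 in ICI-myocarditis. Ear1 and Ear6 had 0 in every library, and Epx had 0 in every control and 0.725 to 3.06 in ICI-myocarditis. The 1 tested gene of that list, Siglec5, rose, with between 0 and 4.93 normalized counts in controls and between 10.7 and 17.4 in ICI-myocarditis. It missed the threshold without control 1 (limma adjusted p = 0.0527) and without control 3 (0.0664). RefSeq gives Siglec5 as a synonym of both Siglecf and Siglece, but Siglece has a row of its own here, at 320 to 398 in ICI-myocarditis. The part of eosinophils in the level of Emr1 was not tested. Of the other genes of its receptor family, Cd97 and Emr4 did not pass (0.38 and -1.13, limma adjusted p = 0.252 and 0.0868).

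Cd68 encodes macrosialin, a glycoprotein of the lysosomal membrane, and lies at 69664213 to 69666153 on chromosome 11 (minus strand). Cd68 stood at 225, 313, 207 and 206 normalized counts in controls 1 to 4 and at 713, 1075 and 2311 in ICI-myocarditis 1 to 3. The ICI-myocarditis hearts were spread widely, with a coefficient of variation of 61.3% against 21.5% in controls. Cd68 rose by 2.36 (SE 0.368, limma adjusted p = 0.00476), and by 1.90 without ICI-myocarditis 3. Its relatives Lamp1 and Lamp2, lysosomal membrane genes of most cells, did not pass (0.09 and 0.60, adjusted p = 0.880 and 0.214).

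Lyz2, the lysozyme gene of myeloid cells, lies at 117277331 to 117282321 on chromosome 10 (minus strand). It had 3968, 7208, 8195 and 8614 normalized counts in controls 1 to 4 and 22942, 14438 and 16857 in ICI-myocarditis 1 to 3. Lyz2 ordered the libraries differently from most members, with ICI-myocarditis 1 highest and control 1 far below the other controls. The log2 fold change of Lyz2 was 1.40 (SE 0.326, limma adjusted p = 0.0202), and the call was lost without ICI-myocarditis 1 (1.22, 0.0698) and without ICI-myocarditis 3 (1.44, 0.0647). Lyz1, a close copy next to it on chromosome 10, had 11.1 to 34.6 normalized counts in controls and 18.8 to 26.6 in ICI-myocarditis, and reads shared by the copies may have been split or dropped. The log2 ratio of Lyz2 to Cd68 was 4.83 ± 0.61 in controls and 3.87 ± 1.08 in ICI-myocarditis (SD, n = 4 and 3, exact permutation p = 0.171, adjusted 0.283). That difference of -0.96 was -0.46 without ICI-myocarditis 3 and -1.53 without ICI-myocarditis 1.

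Itgam encodes CD11b, the alpha chain of complement receptor 3, which lets myeloid cells adhere and take up complement-coated particles. The gene lies at 128062640 to 128118491 on chromosome 7 (plus strand), just after the window printed above. Itgam had 281, 522, 354 and 363 normalized counts in controls 1 to 4 and 1857, 1673 and 3625 in ICI-myocarditis 1 to 3. The highest control was again control 2, and ICI-myocarditis 3 had about as much as the other 2 ICI-myocarditis hearts together. Itgam rose by 2.59 (SE 0.310, limma adjusted p = 0.00285) and passed in all 18 alternatives. GENCODE M21 also lists Gm49368 on the same strand, sharing 3450 exon bases with Itgam.

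Neutrophils and natural killer cells carry CD11b as well. The neutrophil genes S100a8 and S100a9 had 4.03 to 37.5 and 5.04 to 56.3 normalized counts in controls and 5.07 to 28.3 and 10.9 to 17.6 in ICI-myocarditis. The neutrophil list held 11 genes, of which 10 were matched to a row and Ly6g was not. Of 3 tested neutrophil genes, Csf3r alone was higher (2.91, limma adjusted p = 0.0140, and 0.0654 without ICI-myocarditis 3). The list summed to 63.5 to 226 in controls and to 338, 495 and 909 in ICI-myocarditis 1 to 3. Csf3r alone made 282, 462 and 820 of those 3 ICI-myocarditis sums, so the higher sums rest on this gene. The granule enzyme genes Mpo and Elane were at most 4.09 and 1.23. The natural killer list summed to 12.5 to 204 and 268 to 384, with Klra8 at 0 and 2 of 4 tested genes higher (Eomes and Klre1, 3.85 and 4.15), but 0 of them with edgeR or DESeq2 and 0 without control 1, without control 3 or without any 1 ICI-myocarditis library. The part of these cells in the level of Itgam was not tested.

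Itgb2, the beta chain that pairs with CD11b, rose by 3.29 (limma adjusted p = 0.00594). The log2 ratio of Itgam to Itgb2 was -0.19, -1.55, 0.00 and 0.22 in controls 1 to 4 and -0.95, -1.25 and -1.04 in ICI-myocarditis. Control 2 lay below all 3 ICI-myocarditis hearts in this ratio and the other controls above them, and the groups did not differ past the threshold (-0.70, or -1.09 without control 2, exact permutation p = 0.200, adjusted 0.283). Itgal and Itgax, the alpha chains of LFA-1 and CD11c, rose by 3.99 and 4.44 (limma adjusted p = 0.00978 and 0.0128), and the ligand gene Icam1 rose by 1.86 (0.0209). Itgax missed the threshold without ICI-myocarditis 3 (0.0543), and Icam1 missed it without control 1, control 3, ICI-myocarditis 2 or ICI-myocarditis 3 (0.0594 to 0.0901). Of the 10 tested genes in the list of beta2 integrins and partners, 7 were higher and 3 did not pass, with a median of 2.55.

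Cd14 encodes the co-receptor that hands bacterial lipopolysaccharide to TLR4 and MD-2, and it is a marker of human monocytes. The gene lies at 36725067 to 36726798 on chromosome 18 (minus strand). Cd14 had 220, 159, 253 and 256 normalized counts in controls 1 to 4 and 216, 203 and 284 in ICI-myocarditis 1 to 3. The groups overlapped, with 2 of the 3 ICI-myocarditis hearts below 3 of the 4 controls. The log2 fold change of Cd14 was 0.09 (95% interval -0.48 to 0.65, limma adjusted p = 0.860), it passed in 0 of 18 alternatives, and its sign turned in 3 of them. The interval of Emr1, for comparison, ran from 1.79 to 2.78 and that of Itgam from 1.89 to 3.29. A test of Cd14 against these members was not run, since Cd14 would have been picked by its values.

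The receptor gene Tlr4 rose by 0.70 (limma adjusted p = 0.0467, in 5 of 18 alternatives), and Ly96, which encodes MD-2, had 44.4 to 64.8 normalized counts in controls and 55.3 to 84.8 in ICI-myocarditis (adjusted p = 0.459). The log2 ratio of Cd14 to Tlr4 was -2.10 ± 0.35 in controls and -2.71 ± 0.05 in ICI-myocarditis (SD, n = 4 and 3, exact permutation p = 0.0571, adjusted 0.162). All 3 ICI-myocarditis ratios lay below every control, of which control 2, at -2.56, was the nearest. Of 11 tested genes in the lipopolysaccharide receptor list, 5 were higher and 6 did not pass, with a median of 0.70. Cd180 and Ly86, a related receptor and its partner, rose by 3.89 and 3.11 (limma adjusted p = 0.00872 and 0.00251).

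Ly6c2 encodes the surface protein Ly6C that is abundant on inflammatory monocytes, and it lies at 75108158 to 75111970 on chromosome 15 (minus strand). Ly6c2 had 19.2, 144, 26.8 and 16.3 normalized counts in controls 1 to 4 and 281, 242 and 468 in ICI-myocarditis 1 to 3. Control 2 held several times as much as any other control, so the control SD of 62.0 exceeded the mean of 51.6. Control 2 was also the highest control in the T cell genes, of which 7 of 7 tested were higher in ICI-myocarditis (median 5.17). Which cells the Ly6c2 reads came from was not tested. Ly6c2 rose by 3.21 (SE 0.686, limma adjusted p = 0.0143), and by 3.90 without control 2 (1e-04). It missed the threshold without ICI-myocarditis 3 (2.93, adjusted p = 0.0658), and edgeR gave a lower value of 2.64 (0.0443).

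Ly6c1, a near-identical gene on the same chromosome that endothelium expresses, had 3860 to 6697 normalized counts in controls and 4365 to 5361 in ICI-myocarditis, a log2 difference of -0.05 (limma adjusted p = 0.922) whose sign changed in 3 of 18 alternatives. Reads shared by the pair may be split between them. The log2 ratio of Ly6c2 to Ly6c1 was -7.14 ± 1.13 in controls and -3.88 ± 0.34 in ICI-myocarditis (SD, n = 4 and 3, exact permutation p = 0.0571, adjusted 0.162). Every ICI-myocarditis ratio lay above every control, though the difference of means was not the most extreme of the 35 splits. Among the Ly6 relatives, Ly6a rose by 1.47 (limma adjusted p = 0.0103, in all 18 alternatives). Ly6i, also called at 3.18 (0.0448), had overlapping groups, with control 2 at 66.6 and ICI-myocarditis 1 at 58.3 normalized counts, and passed in 7 of 18. Of 4 tested relatives 3 were higher, and 1 with TMM scaling, with edgeR and without control 1, control 3, control 4, ICI-myocarditis 2 or ICI-myocarditis 3.

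Genes of monocytes and macrophages outside the 9 were counted by list. Of 18 other macrophage genes, 16 were higher, 1 lower and 1 did not pass, with a median of 2.68. Ctss, a lysosomal protease, rose by 4.29, and C1qb, a complement subunit, by 2.74 (limma adjusted p = 0.00251 for each). Cd163, a haemoglobin scavenger receptor of resident macrophages, fell by 0.92 (0.00799). Of the 8 tested resident macrophage genes, 1 was higher (Mrc1, 0.79) and 2 lower (Cd163 and Cbr2), with a median of -0.26, and their summed level was 11300 to 13400 in controls and 11300 to 17400 in ICI-myocarditis. Cd163 passed in 17 of 18 alternatives, Mrc1 in 10 and Cbr2 in 9. Without control 1, control 3, control 4 or ICI-myocarditis 3, 0 of the 8 were higher and 1 was lower. Both lists share Cd163 and Mrc1.

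Inflammatory monocyte genes numbered 10 tested, with 7 higher, 1 lower and a median of 2.85, and 4 were higher without control 1. Ccr2, the receptor that draws these monocytes into tissue, had 66.5, 1099, 276 and 77.6 normalized counts in controls 1 to 4 and 1483, 1643 and 1821 in ICI-myocarditis. Control 2 approached the ICI-myocarditis hearts, and Ccr2, which rose by 3.04 (limma adjusted p = 0.0385), passed in 8 of 18 alternatives. Ms4a6c, a membrane gene of monocytes, rose by 2.66 (0.00317), while F13a1, the factor XIII gene of resident macrophages and monocytes, fell by 1.60 (0.00409). Cx3cr1, high on patrolling monocytes, rose by 1.99 (0.00892), and 6 of 9 patrolling monocyte genes were higher, or 3 without ICI-myocarditis 3. Ace, Nr4a1 and Eno3 of that list did not pass (0.86, -0.52 and -1.29, limma adjusted p = 0.0707, 0.774 and 0.0885). The list summed to 32200 to 77600 in controls and 28600 to 38000 in ICI-myocarditis. Eno3 alone had 26344 to 71712 and 9320 to 27510.

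**Figure D3:**
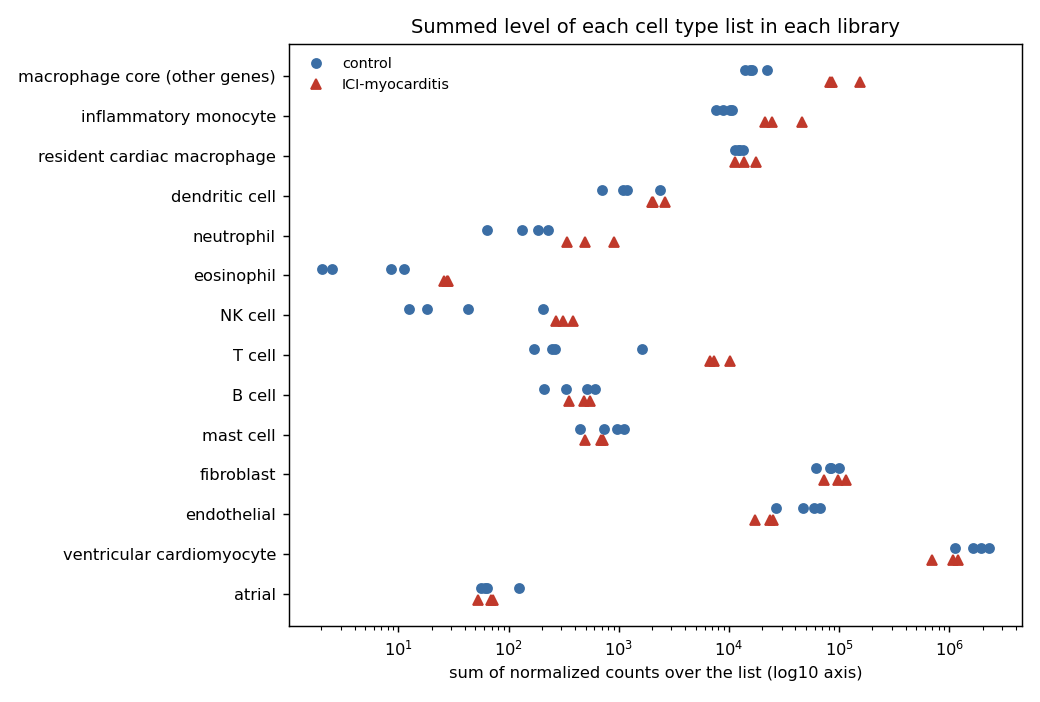
Summed normalized counts (horizontal, log10 axis) of chosen cell type lists in 4 control libraries (blue circles) and 3 ICI-myocarditis libraries (red triangles). The patrolling monocyte list and a list of genes of all leukocytes are not drawn. The other macrophage genes sum to 14000 to 22300 in controls and 82500 to 154000 in ICI-myocarditis. Eosinophil, natural killer and neutrophil sums are at most 28.3, 384 and 909 in any library. The lists differ in their number of genes and the sums are not scaled by gene length, so sums of different lists do not compare amounts of cells.

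Genes of other cells of the heart were read by list as well. Of 6 fibroblast genes 1 was higher (0 to 2 over the alternatives), with a median of 0.19 and list sums that overlapped between the groups. The 6 endothelial genes summed to 26700 to 66500 in controls and 17300 to 25000 in ICI-myocarditis, with 3 lower (Emcn, Erg and Kdr). All 6 were lower without control 4, with DESeq2 and with limma-voom, and 1 with library size scaling, while Kdr missed the threshold without control 1, control 3 or any 1 ICI-myocarditis library. The ventricular cardiomyocyte genes summed to 1130000 to 2290000 and 697000 to 1200000, with 0 of 6 passing by limma (1 of them, Tnni3, at an unadjusted p under 0.05, and at most 2 lower in any alternative). The cardiomyocyte sums overlapped between the groups, and the endothelial sums did not. The part of these cells in the levels of the members was not tested. With library size alone as the scaling, the median of all genes moved to 0.13 and all 8 calls held.

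Each member was next set against Ptprc, which encodes CD45, the surface protein of nearly all leukocytes, within the same library. Ptprc had 483, 2874, 1108 and 518 normalized counts in controls 1 to 4 and 8012, 6879 and 10493 in ICI-myocarditis 1 to 3, a rise of 3.14 in log2 units (limma adjusted p = 0.00731). The ratio of Ly6c2 to Ptprc differed least between groups, at -4.78 ± 0.44 and -4.71 ± 0.20 (SD, n = 4 and 3, exact permutation p = 0.829). In control 2, which stood high in Ly6c2, this ratio was -4.31, the highest of the controls. The difference of 0.07 turned below 0 without control 3 (-0.11), without ICI-myocarditis 3 (-0.05) and with a pseudocount of 5 (-0.10).

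The ratio to Ptprc differed by -3.05 for Cd14 and -2.44 for Csf1 (exact permutation p = 0.0571 for each, adjusted 0.162), with the groups apart for both. It differed by -1.81 for Csf1r and -1.74 for Lyz2 (0.0857, adjusted 0.182), with control 2 among the ICI-myocarditis values. For Emr1, Cd68, Sfpi1 and Itgam the differences ran from -0.86 to -0.55 (exact permutation p from 0.200 to 0.371). These 4 differences moved with single libraries: without control 2 they ran from -1.26 (Emr1) to -0.86 (Sfpi1), and without control 4 from -0.61 (Emr1) to -0.27 (Itgam). Without ICI-myocarditis 1 the difference of Cd68 was -0.42, and without control 1 it was -0.47 and that of Itgam -0.36. Of all 17 ratios, 0 passed adjustment of the exact permutation test and 1 had an unadjusted p under 0.05. Since 10 of the 17 would have had to reach the smallest possible p for any to pass, this count says little about whether members changed by different amounts.

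**Figure D4:**
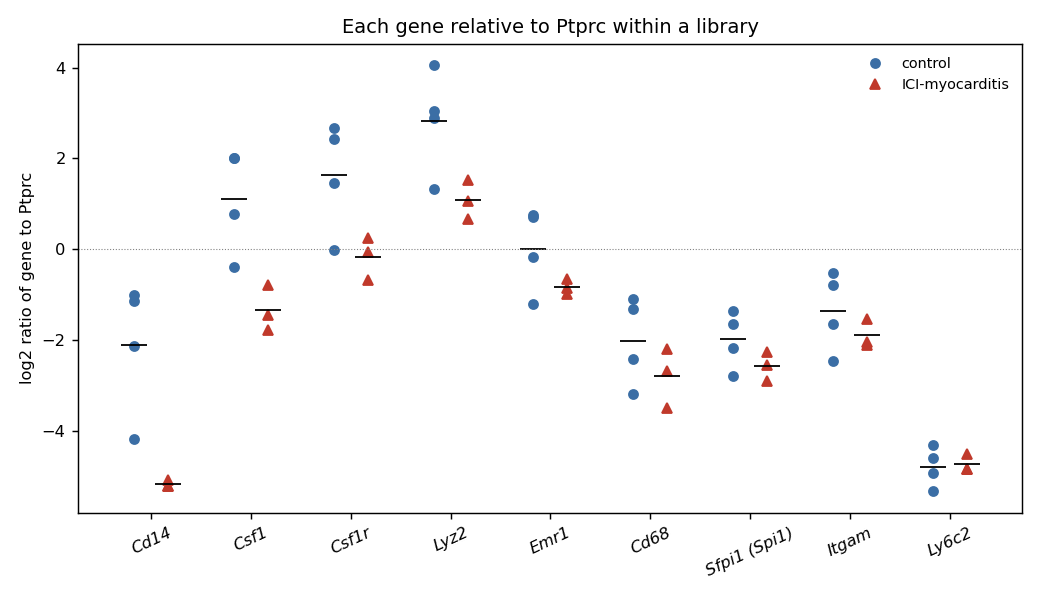
Log2 ratio of each member to Ptprc (vertical) in 4 control libraries (blue circles) and 3 ICI-myocarditis libraries (red triangles), with group means as lines, ordered by the difference between groups. The difference runs from -3.05 for Cd14 to 0.07 for Ly6c2.

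Levels were compared between genes per kilobase of exon (GENCODE M21). In controls Lyz2 was highest, at 5320 ± 1600 normalized counts per kilobase (SD, n = 4), followed by Csf1r at 512 ± 26.1, Csf1 at 385 ± 26.4 and Emr1 at 301 ± 61.2. Cd68 (189 ± 40.6), Cd14 (128 ± 26.1), Sfpi1 (94.6 ± 41.9), Itgam (75.6 ± 20.2) and Ly6c2 (18.8 ± 22.6) came below. Control ranges of neighbours overlapped for Csf1 and Emr1, Emr1 and Cd68, Cd14 and Sfpi1, and Sfpi1 and Itgam. Within every control library, however, Csf1 lay above Emr1, Emr1 above Cd68 and Sfpi1 above Itgam. The last of these was narrow in control 1 (57.6 against 56). Cd14 lay below Sfpi1 in control 2 (91.9 against 154) and above it in the other controls, so the order of that pair is not settled by these libraries.

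In ICI-myocarditis Lyz2 was again highest, at 13700 ± 3330 per kilobase (SD, n = 3). Emr1 (1460 ± 289), Csf1r (1390 ± 687), Cd68 (1090 ± 666), Csf1 (631 ± 111), Sfpi1 (548 ± 228) and Itgam (475 ± 215) followed, each overlapping the next. Cd14 (135 ± 25.2) and Ly6c2 (121 ± 44.0) lay below these and overlapped each other. The gene lengths may not be those the authors counted on, so these orders are approximate.

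The members also ordered the animals in different ways. Control 2 was the highest control for 6 of the 9 genes but the lowest for Cd14. ICI-myocarditis 3 was the highest of its group for 7 genes, and the exceptions were Lyz2, highest in ICI-myocarditis 1, and Csf1, highest in ICI-myocarditis 2.

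For each member, the tested genes with the most similar course over the 7 libraries were found by the root mean square difference of centred log2 values. The nearest were Siglece for Emr1 (0.117), Fcgr2b for Cd68 (0.127), Emp1 for Csf1r (0.076) and Ctsh for Lyz2 (0.101). They were Rmdn3 for Csf1 (0.111), Ptk2b for Itgam (0.176), Atp8b4 for Ly6c2 (0.171), Lcp1 for Sfpi1 (0.107) and Gsr for Cd14 (0.086). Among the members themselves, Sfpi1 was the third nearest gene to Itgam (0.187). These distances describe 7 shared libraries and carry no test.

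An adjusted p below 0.05 was given to 8 of these 9 genes in the authors' deposited table, with log2 fold changes from 0.71 (Csf1) to 2.68 (Ly6c2). Cd14 had 0.08 and an adjusted p of 0.891 in the authors' deposited table.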

How the data were processed

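Total RNA libraries from the hearts of 7 mice were sequenced as paired reads. Reads were aligned with STAR 2.7.3 to GRCm38 (mm10), per the submitters' processing notes, while how genes were counted, on which annotation and with which strand setting is not given in the sources used here. The deposited values are a signal, each a gene count scaled by the size factor of its library, as the values show. Per the file headers, the authors added their own log2 fold change with its error, a score that is their test statistic, and p-values before and after adjustment.

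Rows with names turned into dates (27) or repeated (2 names) held 0.143% of reads and were left out. limma 3.58.1 (R 4.3.3), with trend and robust variance, was fitted to log2(normalized count + 1) of genes reaching 10 normalized counts in 3 or more libraries, and p-values were adjusted by Benjamini-Hochberg over all these genes. That scale understates changes of low genes. Whole reads were recovered by dividing each column by its step, less surely for control 1 because its step is close to 1, and were used for edgeR 4.0.16, DESeq2 1.42.0 and limma-voom as alternatives. The reads carry no molecular identifiers, so they are not counts of molecules, and low values carry the larger counting error. Ratios of 2 genes were compared by exact two-sided permutation over 35 splits. The tests were checked on simulated counts.

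The members and lists were chosen with earlier results of these data known. Genes named are the 9, set partners, the genes of each list with the lowest p, highest level or no reads, and nearest profiles. Not every gene that met this rule is named, and some are not reported here. Cd163, Mrc1, Cbr2, F13a1, Ace, Nr4a1, Eno3, Epx, Mpo, Elane, Csf2, Csf3, Csf3r, Cd79b, Eomes, Klre1, Emcn, Erg, Kdr, Tnni3, Siglec5, Emr4, Ly6a, Ly6i, Sln and Myl7 were named after their values were seen. Places and lengths are from GENCODE M21, and list names missing from the table were matched through RefSeq synonyms. Same-numbered libraries of the groups correlated at -0.27, -0.21 and -0.08 in their deviations from group means. These values gave no sign that the numbers pair the animals, but so few libraries cannot exclude it.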

Additional observations from a re-analysis of the deposited data

How the results depend on the processing

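The tests were rerun under 18 alternatives. Emr1, Cd68, Itgam and Sfpi1 passed under all 18, and all 9 genes but Cd14 kept their direction throughout. All genes called numbered 3998 with limma-voom and quality weights, against 2392, and from 983 to 3333 when 1 library was left out, where the members called ranged from 5 (without ICI-myocarditis 3) to 8. Leaving out 1 library gave log2 fold changes of 0.56 to 0.79 for Csf1, 0.96 to 1.62 for Csf1r, 1.15 to 1.55 for Lyz2, 2.88 to 3.90 for Ly6c2 and -0.07 to 0.18 for Cd14, which was below 0 without control 2 (-0.07) and without ICI-myocarditis 3 (-0.06). Cd14 was also below 0, at -0.17, with limma-voom. With the shared replicate number as a block, 1777 genes and 7 members passed, Csf1 missing at 0.72 (limma adjusted p = 0.153). Control 4 has no ICI-myocarditis library of its number, so that fit gave the members the same log2 fold changes as leaving control 4 out. No sample correlated best with its own number. The share of higher calls was 74.5%, and 62.8% with DESeq2, 62.1% with limma-voom and 84.3% with library size scaling. The adjusted test of the gene ratios could hardly pass, so its outcome over the alternatives says nothing of stability. With 1 library left out the exact test could not pass, and those ratios are values only. Depth bears most on low values, such as Ly6c2 at 16.3 to 26.8 normalized counts in 3 controls; counting error was not compared with the spread between animals.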
